A study of Rattus norvegicus with 6 samples.

Results

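The miRNAs linked to fibrosis that are described here were chosen by name alone, as every miR-29a, miR-29b, miR-29c, miR-199a and miR-214 entry of a deposited table of rat testis miRNAs. There were 9 of them among 721 listed miRNAs, of which 539 carried a miRBase name. They were miR-29a-3p, miR-29a-5p, miR-29b-3p, miR-29b-5p, miR-29c-3p, miR-29c-5p, miR-199a-3p, miR-199a-5p and miR-214-3p, where 5p and 3p name the arm of the precursor hairpin that a mature miRNA is cut from. miR-214-5p and miR-29b-1-5p were not analysed here.

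Fibrosis is the replacement of working tissue by collagen-rich matrix laid down by activated fibroblasts, and several microRNAs (miRNAs, small RNAs that bind messenger RNAs and lower their translation and stability) are known to act on it. The miR-29 family is known in heart, kidney and liver to repress collagen and other matrix genes, so less of it goes with more matrix. miR-199a and miR-214 are made from one long transcript that is active in mesenchymal cells, and both are known to rise with fibroblast activation in other organs. In the testis, fibroblast-like and contractile cells lie around the seminiferous tubules and vessels, next to the far more numerous germ cells.

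The libraries were small RNA from whole testicular tissue of Sprague-Dawley rats, 3 with STZ-induced diabetes and 3 normal. Streptozotocin (STZ) destroys insulin-producing cells, and the diabetic testes were sampled after 8 weeks. The study's methods gave these rats a high-fat diet and then STZ by intraperitoneal injection, and gave control rats citrate buffer without stating their diet, so effects of diet, STZ and high blood glucose cannot be told apart. In bulk tissue, fewer cells of a type and less of a miRNA per cell cannot be told apart either.

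All 9 matched a mature sequence in RefSeq (rat assembly GRCr8). They are printed 5′ to 3′ because they show which members share a targeting site: the capitals mark the seed, bases 2 to 8, the part of a miRNA that mainly selects its targets. The 3 members of the miR-29 family that come from the 3p arm have one seed:
miR-29a-3p: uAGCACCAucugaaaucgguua
miR-29b-3p: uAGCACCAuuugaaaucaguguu
miR-29c-3p: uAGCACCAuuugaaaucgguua
The remaining members each have a seed of their own:
miR-29a-5p: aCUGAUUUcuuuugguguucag
miR-29b-5p: cUGGUUUCacaugguggcuuag
miR-29c-5p: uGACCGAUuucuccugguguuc
miR-199a-3p: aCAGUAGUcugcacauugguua
miR-199a-5p: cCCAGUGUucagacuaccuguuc
miR-214-3p: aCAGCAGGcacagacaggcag

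The 9 members thus had 7 seeds. Among the 492 named miRNAs of the table with a RefSeq sequence, none outside the 9 had any of these seeds. Positions are counted from 1 at the 5′ end and the first-named miRNA's base is written first. miR-29a-3p and miR-29c-3p differed at 1 of 22 positions, C10U, outside the seed. miR-29c-3p and miR-29b-3p differed at 3 positions, G18A, U21G and A22U, and miR-29b-3p was 1 base longer. How reads with a mismatch were assigned was not stated, so the values of miR-29c-3p in particular are uncertain beside its abundant relative. miR-29b-3p is cut from both Mir29b1 and Mir29b2 and its reads cannot be assigned to either gene.

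The precursor hairpins of Mir29a and Mir29c are shown with both mature arms in capitals, since the 2 arms of each were compared:
Mir29a: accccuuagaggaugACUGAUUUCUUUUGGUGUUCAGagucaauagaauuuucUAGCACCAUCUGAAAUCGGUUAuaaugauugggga
Mir29c: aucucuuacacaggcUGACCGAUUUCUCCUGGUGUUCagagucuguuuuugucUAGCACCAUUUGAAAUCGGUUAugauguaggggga
In the RefSeq gene order, Mir199a2 and Mir214 stood next to each other. Mir29a and Mir29b1 were separated only by Mir3587, a miRNA gene annotated on the opposite strand, and Mir29b2 and Mir29c only by another such gene, Mir3556b. No genome position is given, because the only build named in the submitters' processing notes was mm8, a mouse build.

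Levels are given in CPM, a fixed multiple of the share that one miRNA takes of the miRNA reads of its library. The mature sequences were 21 to 23 bases long and CPM carries no term for length. The libraries held from 305476 to 549446 miRNA reads, recovered from the deposited values, and 1 read was worth from 1.82 to 3.27 CPM. miR-34b, miR-34c and miR-449a, known as germ-cell miRNAs of the testis, together took 306978 to 355974 CPM in every library. The 9 members held 48690 of 2690910 reads, or 1.81%.

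The mean levels of the members ran from 0.55 to 11090 CPM, and a single miRNA made up most of them. miR-29a-3p, which carries the family seed, ranked from 15 to 20 among all listed miRNAs in the 6 libraries. It was at 11425, 12504 and 10809 CPM in diabetic replicates 1, 2 and 3 and at 10131, 11121 and 10548 CPM in normal replicates 1, 2 and 3. Diabetic replicate 2 was the highest and the groups overlapped. miR-199a-3p followed at a mean of 4418 CPM over the 6 libraries and miR-199a-5p at 2239 CPM. miR-29b-3p averaged 264 CPM and miR-29c-3p 136 CPM, and in each of these 4 steps the lowest library of the more abundant miRNA was above the highest library of the next. miR-29c-5p, miR-214-3p and miR-29a-5p averaged 16.7, 11.8 and 7.33 CPM, and their ranges over the libraries overlapped, so their order was not resolved. miR-29b-5p had 1 read in diabetic replicate 1 and 0 in the other 5 libraries. A count of 0 allows up to 3 reads, which was 5.46 to 8.06 CPM in those libraries.

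**Figure D1:**
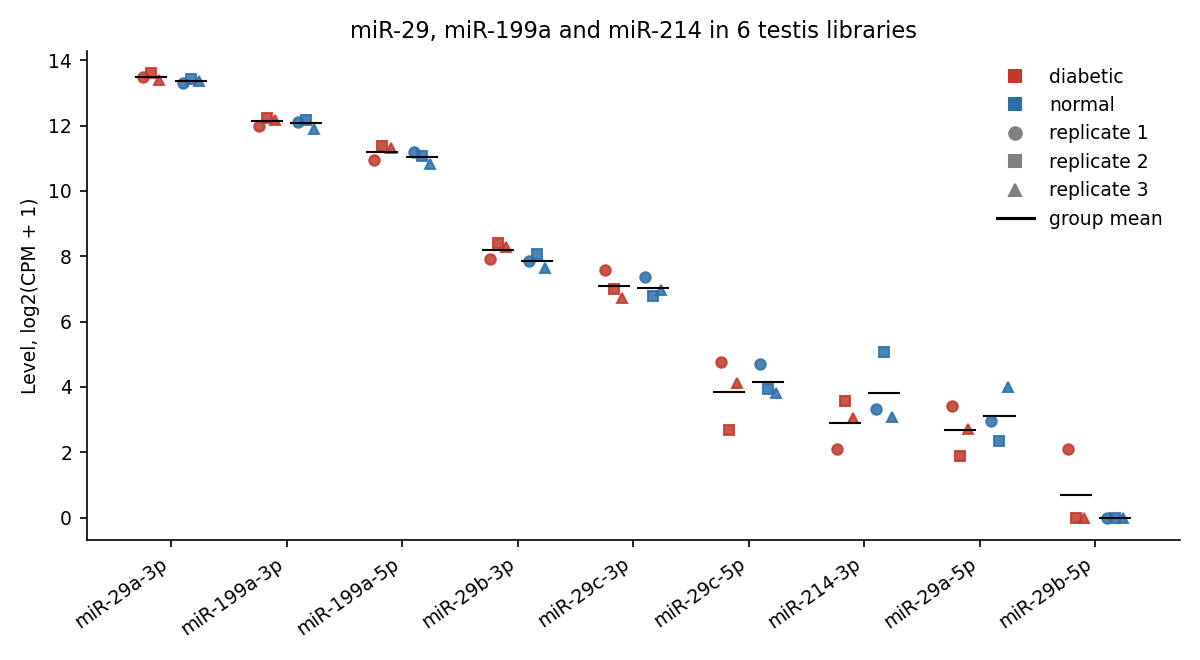
Level of each of the 9 miRNAs, as log2(CPM + 1), in the 3 diabetic (red) and 3 normal (blue) libraries. Marker shapes give the replicate and black bars the group means. miR-29a-3p is highest in every library, the first 5 miRNAs keep their order, and the groups overlap for all 9.

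The miR-29 family consisted almost wholly of one form. miR-29a-3p took 96.0% to 96.8% of all miR-29 reads in the 6 libraries. For every 100 reads of miR-29a-3p there were 2.37 ± 0.368 reads of miR-29b-3p and 1.23 ± 0.321 reads of miR-29c-3p (SD, n = 6). The share of miR-29b-3p was 2.09, 2.69 and 2.88 reads per 100 in the diabetic and 2.26, 2.41 and 1.90 in the normal libraries. That of miR-29c-3p was 1.66, 1.01 and 0.960 against 1.61, 0.986 and 1.18. Replicate 1 of both groups had the highest relative miR-29c-3p, and neither share separated the groups. The ratio of miR-29b-3p to miR-29c-3p therefore ran from 1.26 in diabetic replicate 1 to 3 in diabetic replicate 3, a wider spread within the diabetic group (2.31 ± 0.923, SD, n = 3) than between the group means (1.82 ± 0.552 in normal, SD, n = 3).

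Although Mir199a2 and Mir214 lie side by side, the mature miRNAs annotated to them differed widely in level. Mir199a2 was the only RefSeq gene matched to the miR-199a arms, and identical reads from any other gene could not be told apart. CPM does not correct for sequence-dependent recovery either, so the gap does not measure the output of these genes. miR-214-3p gave 33 reads over the 6 libraries while miR-199a-3p gave 11888. The reads of miR-214-3p were 0.0801%, 0.222% and 0.157% of those of miR-199a-3p in the diabetic libraries and 0.204%, 0.697% and 0.196% in the normal libraries. Normal replicate 2 stood apart with 16 of the 33 reads, and the other 5 libraries held 1 to 4 reads each. In the same library miR-199a-3p, at 4657 CPM, lay within the range of the others.

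The 2 arms of a hairpin are released together, and usually one is kept. For Mir29a the 3p arm took 99.86% to 99.98% of reads, as 29621 reads of miR-29a-3p stood against 20 of miR-29a-5p. For Mir29c, the same arm took 86.4% to 95.9%, with 44 of 398 reads from miR-29c-5p. In the smallest of these counts, 49 reads in diabetic replicate 2, the 95% Wilson interval was 86.3% to 98.9%. miR-199a was different in that both arms were abundant, with any identical reads from another gene included. Its 3p arm took 67.5%, 64.8% and 64.7% of reads in the diabetic libraries and 65.3%, 68.5% and 68.1% in the normal libraries. The means were 65.7% ± 1.57 and 67.3% ± 1.76 (SD, n = 3 each), the groups overlapped, and the difference lay between the SDs of the 2 groups in size. Intervals and limits of this kind cover counting error only.

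**Figure D2:**
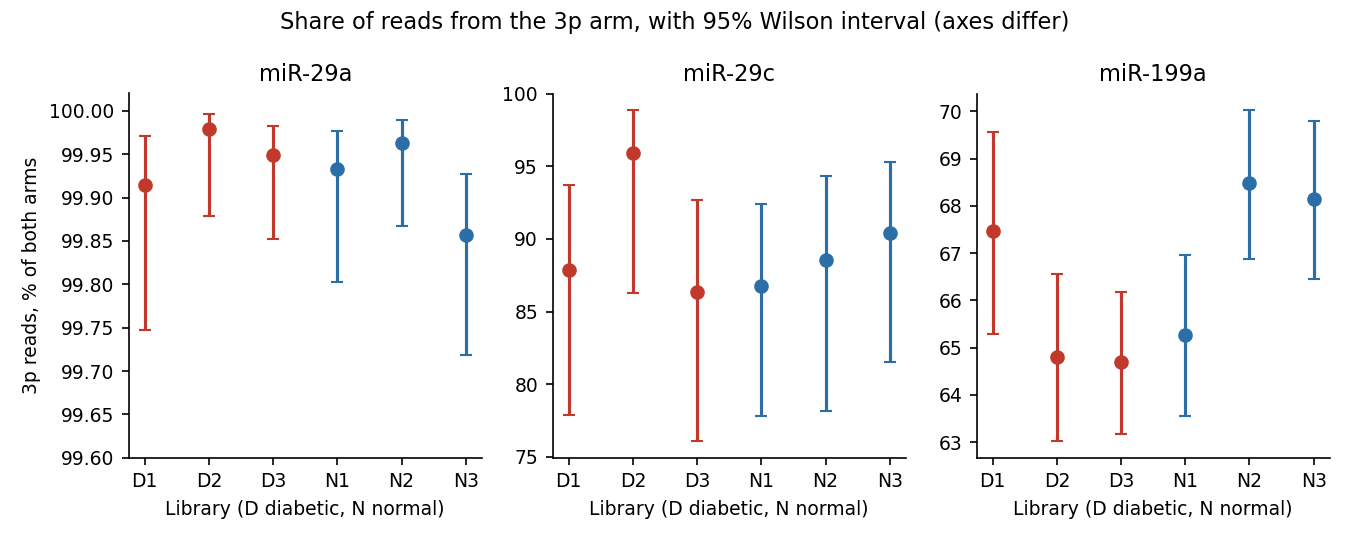
Reads of the 3p arm as a percentage of both arms for miR-29a, miR-29c and miR-199a in each diabetic (D, red) and normal (N, blue) library, with 95% Wilson intervals and a separate axis for each panel. miR-29a is almost wholly 3p, miR-29c mostly 3p, and miR-199a gives both arms at 64.7% to 68.5% 3p.

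The comparison of interest was whether these miRNAs differed between diabetic and normal testes. In limma, fitted over the 578 miRNAs that reached 1 CPM in 3 or more libraries, 8 of the 9 members were tested, and miR-29b-5p was too scarce. None of the 8 had an adjusted p under 0.05, and 0 had an unadjusted p under 0.05, also by the edgeR and DESeq2 tests on recovered reads. Over all 578 miRNAs 8.82% had an unadjusted p under 0.05 and 0% an adjusted one (1 miRNA with DESeq2 and 2 with edgeR). The diabetic and normal libraries overlapped for all 8 members. Over all miRNAs tested the groups did not overlap for 14.9%, and 8 members are too few to show a departure from that share. Log2 changes were above 0 for 5 members and below 0 for 3, and 50.5% of all miRNAs tested had a change above 0. The median of the 8 members was 0.060, against 0.0046 for all 578. Of the 9 members, 5 had at least 10 reads in every library, and these were the 5 with changes above 0. Their changes ran from 0.053 to 0.34. Under the same read threshold 257 miRNAs were tested, and their median change was also above 0, at 0.043.

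miR-29a-3p, the most deeply counted member, averaged 11579 ± 858 CPM over the diabetic group and 10600.1 ± 497 CPM over the normal group (SD, n = 3 each). It changed by 0.13 on the log2 scale (SE 0.088; limma, adjusted p = 0.728), and its exact permutation p was 0.2. Without diabetic replicate 2 the change was 0.069. The 95% interval of the fold ran from 0.957 to 1.24. Its reads per 100 reads of miR-143-3p, a marker of contractile tubule and vessel cells, averaged 13.5 ± 1.73 over the diabetic group and 12.9 ± 1.13 over the normal group (SD, n = 3 each), again with overlap.

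miR-29b-3p showed the highest log2 change of the members and their smallest p. It was at 239, 336 and 311 CPM in the diabetic libraries, from 73, 125 and 171 reads. The normal libraries had 229, 268 and 200 CPM, from 101, 132 and 106 reads. Diabetic replicate 1 lay within the normal range and the other 2 diabetic libraries above it. The log2 change was 0.34 (SE 0.19; limma, adjusted p = 0.671, exact permutation p = 0.2), and the interval of the fold ran from 0.954 to 1.68. Diabetic replicate 1, the library with the fewest reads, decided its unadjusted p: without it the log2 change was 0.49 and the unadjusted p was 0.0324 (adjusted p = 0.631 in limma).

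miR-29c-3p was at 190, 126 and 104 CPM in the diabetic and 163, 110 and 124 CPM in the normal libraries, and the highest and the lowest value were both diabetic. Its log2 change was 0.053 (SE 0.26; limma, adjusted p = 0.929, exact permutation p = 0.9). The direction rested on single libraries, since it was -0.19 without diabetic replicate 1 and -0.072 without normal replicate 2. The 5p arms of the family were scarce. miR-29c-5p had 8, 2 and 9 reads in the diabetic and 11, 7 and 7 in the normal libraries, a log2 change of -0.29 (SE 0.64; limma, adjusted p = 0.846, exact permutation p = 0.9) that became 0.29 without diabetic replicate 2. miR-29a-5p had 3, 1 and 3 against 3, 2 and 8 reads, and its log2 change of -0.43 (SE 0.78; limma, adjusted p = 0.842, exact permutation p = 0.6) became 0.017 without normal replicate 3. Its summed reads, scaled by library totals, gave a diabetic to normal ratio of 0.642 with an exact 95% counting interval of 0.217 to 1.73.

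Summed over its 6 rows, the miR-29 family was at 11893, 12974 and 11246 CPM in the diabetic and 10555, 11517 and 10901 CPM in the normal libraries. Diabetic replicate 3 lay below normal replicate 2, so the sums overlapped.

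miR-199a-3p was at 4085, 4852 and 4625 CPM in the diabetic and 4440.0, 4657 and 3850.0 CPM in the normal libraries. The lowest value was normal replicate 3 and the second lowest diabetic replicate 1, and the groups overlapped. Its log2 change was 0.068 (SE 0.11; limma, adjusted p = 0.831, exact permutation p = 0.6), and the interval of the fold was 0.897 to 1.22. Without normal replicate 3 the change was -0.012. Relative to the contractile marker, there were 5.27 ± 0.597 reads of miR-199a-3p per 100 reads of miR-143-3p over the diabetic group and 5.25 ± 0.289 over the normal group (SD, n = 3 each).

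miR-199a-5p was at 1971, 2634 and 2524 CPM in the diabetic and 2362, 2144 and 1800 CPM in the normal libraries. Diabetic replicates 2 and 3 were above all normal libraries, and diabetic replicate 1 was below 2 of them. The log2 change was 0.17 (SE 0.13; limma, adjusted p = 0.774, exact permutation p = 0.4), and the fold had an interval of 0.928 to 1.37. As with miR-29b-3p, the unadjusted p came below 0.05 when diabetic replicate 1 was left out, at 0.0438 for a log2 change of 0.30 (adjusted p = 0.631 in limma). The change was 0.095 without diabetic replicate 2 and 0.067 without normal replicate 3. miR-29b-3p and miR-199a-5p were 2 of the 8 tested members, where 4.33% of all 578 miRNAs had an unadjusted p under 0.05 and were higher in diabetic in that fit.

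miR-214-3p was the member with the largest difference in the log2 fit and one of the least certain. It was at 3.30, 10.8 and 7.30 CPM in the diabetic libraries, from 1, 4 and 4 reads. The normal libraries had 9.10, 32.5 and 7.5 CPM, from 4, 16 and 4 reads. Apart from normal replicate 2, all libraries lay between 3.30 and 10.8 CPM. The log2 change was -0.92 (SE 0.74; limma, adjusted p = 0.795, exact permutation p = 0.4), and it was -0.31 without normal replicate 2. The interval of the fold, 0.175 to 1.58, contained both a large fall and a moderate rise. Its summed reads, scaled by library totals, gave a diabetic to normal ratio of 0.447 with an exact 95% counting interval of 0.183 to 0.997. That interval covers counting error only, and 16 of the 24 normal reads came from replicate 2.

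**Figure D3:**
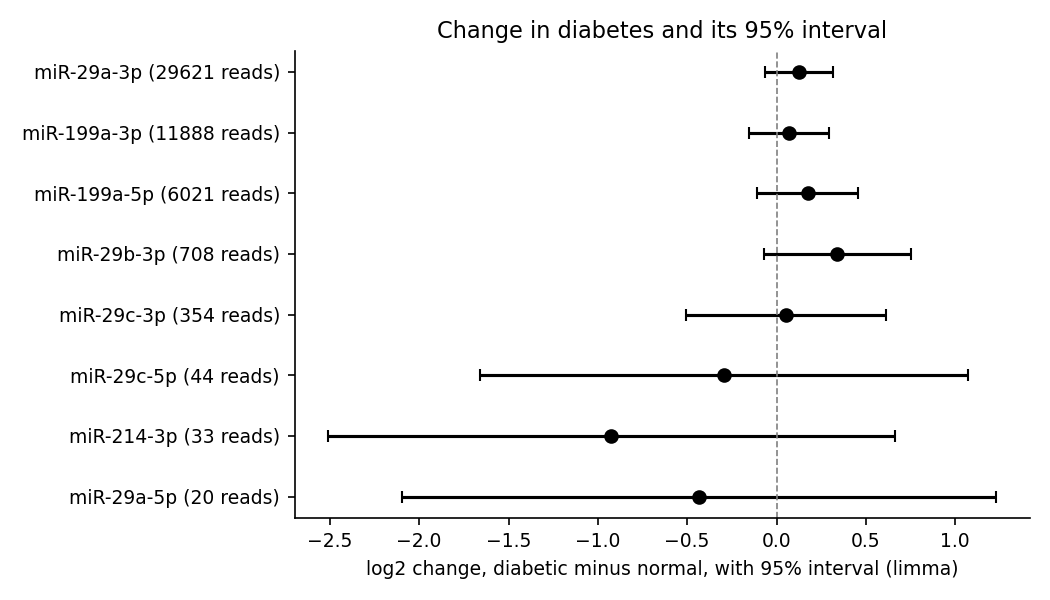
Log2 change (diabetic minus normal, on log2(CPM + 1)) of the 8 tested members with its 95% interval from limma, ordered by abundance with total reads over the 6 libraries in brackets. All intervals include 0, and they widen from miR-29a-3p (29621 reads) to miR-29a-5p (20 reads).

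**Figure D4:**
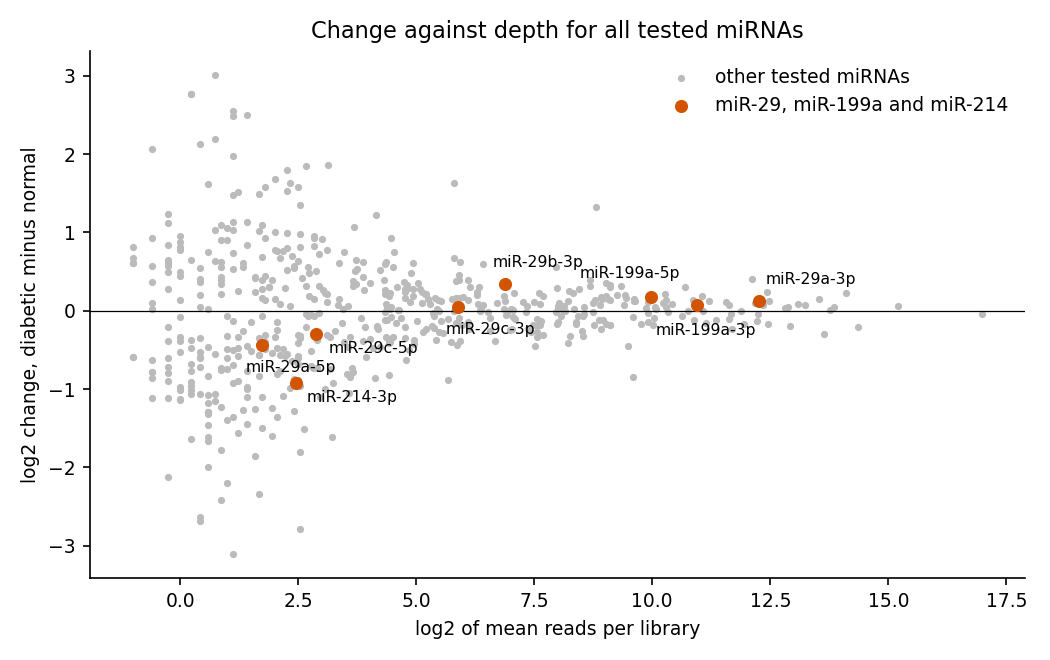
Log2 change (diabetic minus normal) of the 578 tested miRNAs against the log2 of their mean reads per library, with the 8 tested members in orange. The 5 members with at least 10 reads in every library lie between 0.053 and 0.34, and the 3 scarce ones between -0.92 and -0.29.

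The 2 families were also compared within each library, which does not depend on the scaling. The summed miR-29 level was 1.96, 1.73 and 1.57 times the summed miR-199a and miR-214 level in the diabetic libraries and 1.55, 1.69 and 1.93 times in the normal libraries. The means were 1.75 ± 0.197 and 1.72 ± 0.191 (SD, n = 3 each), a difference well inside the spread of either group.

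The spread between replicates differed from counting error according to depth. For miR-29a-3p the coefficient of variation was 7.41% in diabetic and 4.69% in normal libraries, where counting alone gives 1.46% and 1.39%. For miR-199a-5p it was 15.0% and 13.5% against 3.18% and 3.14% from counting. For these abundant members the libraries of a group differed by more than counting error. For miR-29a-5p the spread of 59.6% and 66.1% was close to the 65.5% and 48.0% that counting gives. miR-214-3p varied by 52.6% in diabetic libraries, below the 57.7% from counting, but by 85.5% in normal libraries against 35.4%.

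**Figure D5:**
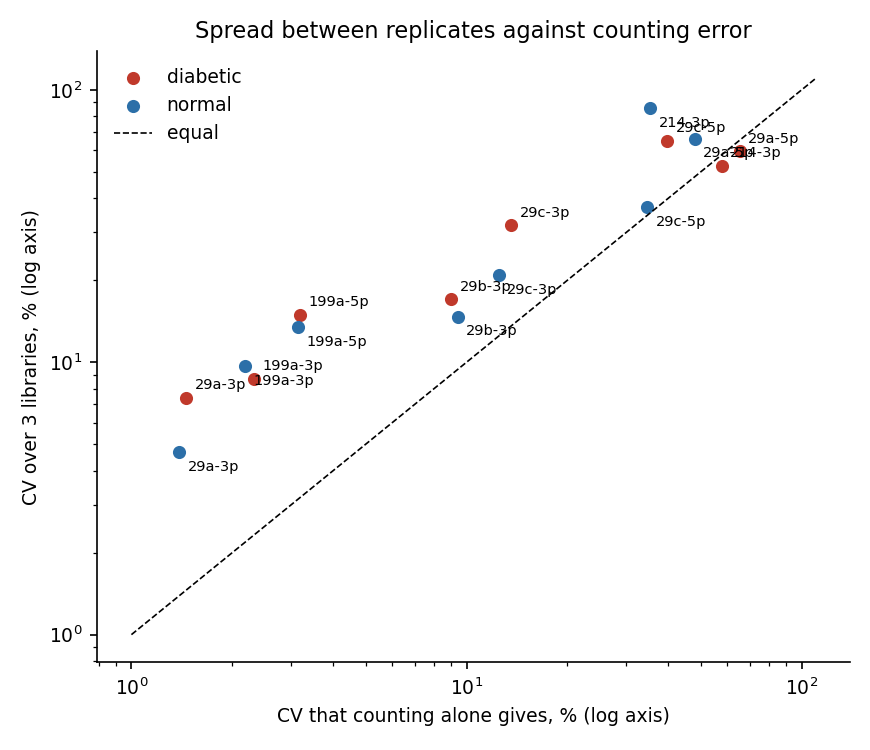
Coefficient of variation over the 3 libraries of a group against the value that counting alone gives, both in percent on log axes, for the 8 tested members in diabetic (red) and normal (blue) libraries. The dashed line marks equality. The abundant miR-29a-3p and miR-199a arms lie well above it, and the scarce miR-29a-5p and diabetic miR-214-3p near or below it.

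The miRNAs most like a member were sought by the root-mean-square difference between log2(CPM + 1) profiles over the 6 libraries, each centred on its mean, among 222 other named miRNAs that had 10 or more reads in every library. miR-29a-3p was nearest to miR-191a-5p and miR-7a-5p, at 0.053 and 0.055 log2 units, with a median of 0.22 over the 222. miR-199a-3p was nearest to miR-34c-3p and miR-181a-5p, at 0.069 and 0.075. Its own other arm, miR-199a-5p, lay at 0.10, which would rank 9 among the 222, and miR-29a-3p at 0.11, which would rank 18. miR-214-3p, on 1 to 16 reads per library, was not close to any. miR-24-2-5p and miR-379-5p were nearest at 0.58 and 0.63, and miR-199a-3p would rank 42 at 0.83. Counting error at this depth enlarges its distances, so they do not show a profile of its own. These distances were over few libraries that share their scaling and are given as a description.

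A list of 25 other miRNAs with a known role in fibrosis was described in the same way. Of the 7 that raise fibrosis, 6 were tested, with a median log2 change of -0.19. The scarcest of these 6 had 0 to 5 reads per library. The summed CPM of the 7 did not overlap, at 44295 to 49002 in diabetic against 51635 to 57349 in normal libraries. Most of that sum was 1 abundant miRNA, and 14.9% of single miRNAs tested had groups that did not overlap. Of the 6 tested, this miRNA was the 1 that was lower at an unadjusted p under 0.05, and 0 were higher. It was miR-21-5p, which is known to promote fibroblast survival, at a log2 change of -0.21 (SE 0.083; limma, adjusted p = 0.406). The 18 that restrain fibrosis had a median of 0.0019, and their summed CPM overlapped between the groups. Of these 1 was higher and 0 lower at an unadjusted p under 0.05. It was miR-200c-3p, which is known to hold cells in an epithelial state, on 1 to 8 reads per library, with a log2 change of 1.63 (SE 0.73; limma, adjusted p = 0.492). The most abundant of the 18, miR-30a-5p, changed by 0.050 (SE 0.13; limma, adjusted p = 0.869). Over all 578 miRNAs 5.54% were higher and 3.29% lower at this threshold.

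Markers of the cell types that whole testis can hold were compared as summed CPM. The 4 contractile-cell rows of miR-143 and miR-145, the nearest in origin to the mesenchymal members, ran from 85959 to 96015 in diabetic and from 79267 to 97409 in normal libraries, and 0 of them had an unadjusted p under 0.05. The sums of the 2 endothelial rows of miR-126a did not overlap, at 11722 to 13783 against 8662 to 11086. Most of the sum was miR-126a-3p, which was higher at an unadjusted p under 0.05, by a log2 change of 0.41 (SE 0.11; limma, adjusted p = 0.348). For miR-126a-5p the groups overlapped, with a log2 change of 0.13 (SE 0.12; limma, adjusted p = 0.795). Of 8 blood and immune rows 1 had an unadjusted p under 0.05, miR-142-3p, with a log2 change of -0.45 (SE 0.16; limma, adjusted p = 0.348), and their sums overlapped at 1132 to 1434 against 1269 to 1498. The liver marker miR-122-5p did not overlap, at 936 to 1372 against 1839 to 2786 (log2 change -0.85, SE 0.17; limma, adjusted p = 0.0907). Over all miRNAs tested, 14.9% had groups that did not overlap. The 6 epithelial rows were at 102 to 141 against 127 to 156. Among them miR-200c-3p (1 to 8 reads per library) was higher and miR-205 (2 to 24 reads) lower at an unadjusted p under 0.05 (limma, adjusted p = 0.492 and 0.348). The 4 striated-muscle rows were at 27.2 to 65.4 against 22.6 to 34.0, the 2 neuronal rows at 444 to 828 against 480 to 739, and the 5 germ-cell rows at 311911 to 333840 against 306978 to 355974, with 0 rows under that threshold in each. The most abundant markers of muscle around tubules and vessels, blood, germ cells, epithelium, striated muscle and neurons were miR-143-3p, miR-486, miR-34c-5p, miR-200a-3p, miR-1-3p and miR-9a-5p. Their log2 changes were 0.067, -0.11, -0.042, 0.043, 0.93 and 0.030, with adjusted p from 0.728 to 0.969 in limma. That of miR-1-3p rested on 4 to 11 reads per library. No marker was at 0 in all 6 libraries. The part of these cell types in the members' values was not tested.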

How the data were processed

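The 9 members and all lists were chosen with earlier results of these data known. Small RNA of 6 rat testes was sequenced single-end. By the methods of the study, the authors removed primers and adaptors, counted small RNAs, annotated them by miRBase family and expressed them as CPM. The submitters' processing notes name Bowtie 0.12.2, HISAT2 2.0, StringTie 1.3.0 and build mm8, without roles, and the labels' extraction text describes a poly(A) library, which was not followed. The miRBase release was not given in the sources used here. CPM is relative to all miRNA reads of a library, so an abundant miRNA shifts the others, and it does not correct for sequence-dependent recovery between miRNAs.

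The deposited CPM values, headed TPM in the file, were rounded to 1 decimal. Whole reads were recovered as the smallest library total for which the rounded reads summed to it and each value was matched within 0.05 CPM, which held for 100% of values. The main test was limma 3.58.1 (R 4.3.3, lmFit and eBayes with trend) on log2(CPM + 1), without covariates, two-sided, for miRNAs that reached 1 CPM in 3 or more libraries, with Benjamini-Hochberg adjustment. Fold changes on this scale understate changes of scarce miRNAs. Single miRNAs were also compared by an exact permutation test, two-sided, which cannot give a p under 0.1 for 3 against 3. Nothing states that same-numbered rats were paired. Replicates were separate samples by label. The limma p-values compare a group difference with a variance between replicates that is drawn in part from all miRNAs tested. The permutation p uses the values of that miRNA alone. The fits were tested on simulated data whose changes were larger than that of any member in the main limma fit. That check does not cover changes of the size the members had in that fit. Alternatives were a pseudocount of 0.1, other filters and scalings, no trend, a replicate block, edgeR 4.0.16 and DESeq2 1.42.0 on recovered reads, and leaving out each library. Named miRNAs were the members, the 2 miRNAs most like 3 of them, miRNAs with the same seed, and, from each list, those with an unadjusted p under 0.05, with the most abundant one.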

Additional observations from a re-analysis of the deposited data

How the results depend on the processing

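Across the 77 values of the 8 tested members under another pseudocount, filter, trend, scaling, block or count test, all 77 kept their direction and their side of an unadjusted p of 0.05. In the 48 fits of a member without one library, 41 did, 2 came under 0.05 and 5 changed direction. The number of members under 0.05 ranged from 0 to 2 in those fits. Log2 changes without one library ranged from -0.012 to 0.14 for miR-199a-3p, from -0.81 to 0.017 for miR-29a-5p, from -0.19 to 0.24 for miR-29c-3p and from -0.75 to 0.29 for miR-29c-5p, and their direction is not settled. Of all miRNAs, 51 had an unadjusted p under 0.05, and 25 did with at least 10 reads in every library, where 257 were tested. The count at an adjusted p under 0.05, 0 in limma, was 8 without the trend, 2 with edgeR, and 1 with DESeq2, with upper-quartile factors, without a filter and under the filter of 10 reads. It was from 0 to 1 without one library. None of these were members. What caused these changes was not tested. With the replicate block the count was 1. Deviations of same-numbered rats from their group means correlated at 0.0065, -0.069 and -0.089 over 257 miRNAs. These values gave no sign of pairing by number, but so few rats cannot exclude it. The block changed no call of a member. The family sums, their ratio and the arm shares moved by less than the spread between replicates in every alternative run for them. Some directions still changed. The log2 difference of the ratio, 0.028, was -0.055 without diabetic replicate 1 and -0.044 without normal replicate 1. The difference in 3p share, in percentage points, went from 1.49 to -1.44 for miR-29c without diabetic replicate 2. For miR-29a it went from 0.030 to -0.00084 without normal replicate 3. Depth limits miR-214-3p, miR-29a-5p, miR-29c-5p and miR-29b-5p, with at most 16 reads in any library.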

Other observations

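miR-3120 was looked at after its values were seen, because its mature sequence is the reverse complement of positions 28 to 48 of the Mir214 hairpin, on the opposite strand. It had 4, 5 and 6 reads in the diabetic and 2, 5 and 2 in the normal libraries, 24 in all, against 33 of miR-214-3p. It changed by 1.01 on the log2 scale (SE 0.68; limma, adjusted p = 0.728), and by CPM the groups did not overlap, at 13.1, 13.4 and 10.9 against 4.5, 10.2 and 3.8 CPM. The groups did not overlap for 14.9% of all miRNAs tested. The annotated miRNAs on the opposite strand of the miR-29 hairpins, miR-3556a, miR-3556b and miR-3587, were not analysed here.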
